A study of Mus musculus with 12 samples.

Results

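The nuclear-encoded subunits of the mitochondrial respiratory chain and of ATP synthase were followed across 4 lines of NIH-3T3 cells, a mouse fibroblast line of NIH/Swiss origin. Members were the rows whose symbol carried a Nduf, Sdh, Uqcr, Cox4 to Cox8 or Atp5 subunit name, and 85 of the 39179 gene IDs matched. Of these, 35 belonged to complex I, 4 to complex II, 8 to complex III, 19 to complex IV and 17 to complex V. The other 2, Atp5s and Atp5sl, carry the ATP synthase name but encode other proteins. Ndufa4 was placed in complex IV, where its protein is now assigned, and 3 members were gene copies that the tables list under a parent gene's symbol (Gm11273 under Cox5b, Gm10175 under Atp5g2 and Gm10221 under Atp5l). Of these, Gm10175 and Gm10221 are annotated as processed pseudogenes, yet count among the 17 of complex V. All of their 36-base stretches, the length of a read, also occur in other genes, so their reads are uncertain. At least 10 normalised reads on average in a line were needed for testing, and 80 members passed. The rule for members used names and no measured value, but it was set with earlier results of these data known.

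The 3T3 cells stably expressed CBL-Y371S, CBL-70Z, WT-CBL or no CBL (empty vector, EV), each with 3 libraries of total RNA, and all had been through passages 13 to 17. CBL is an E3 ubiquitin ligase that attaches ubiquitin to activated receptor tyrosine kinases, and both mutants lack this ligase activity. CBL-70Z has an internal deletion and CBL-Y371S a substitution found in myeloid neoplasms. The FLAG-tagged proteins were delivered by a retroviral vector with puromycin selection, which EV went through as well, and each construct is represented by the libraries of 1 stably expressing line. The sources do not say that libraries of a line came from separate cultures, so p-values measure the spread between libraries, which may be technical.

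Reads in genes ran from 20724468 to 29684881 per library. Reads assigned to mouse Cbl were 627 to 731 after normalisation in EV, 1412 to 1687 in CBL-Y371S, 1620 to 1827 in CBL-70Z and 690.2 to 928 in WT-CBL, so WT-CBL overlapped EV and this check of the labels is partial, since the reads of a transgene need not align to the mouse gene. All 10 fibroblast markers were present, with Col1a1 at 166069 normalised reads or more in every library, and the summed level of this list ran from 978151 to 1017342 in EV, 761262 to 808098 in CBL-Y371S, 796164 to 809024 in CBL-70Z and 888636 to 938283 in WT-CBL. Of these 10, 2 rose in each CBL line and 8, 8 and 7 fell in CBL-Y371S, CBL-70Z and WT-CBL. Summed blood markers ran from 21.2 to 41.0 normalised reads in EV, 32.9 to 138 in CBL-Y371S, 14.7 to 23.9 in CBL-70Z and 21.3 to 73.6 in WT-CBL, and summed epithelial markers, in the same order, from 84.6 to 159, 146 to 293, 85.1 to 109 and 130.2 to 230.3. Endothelial, adipocyte and muscle sums were at most 40.8, 55.0 and 33.0 in any library, with Lep, Myod1 and Myh1 at 0. The part of these markers in the results was not tested. Replicate 3 of WT-CBL stood apart from its line: its reads differed from replicates 1 and 2 by a chi-square of 6.07 per gene each, against 1.66 between replicates 1 and 2, and results that rest on it are given with and without it. To a lesser degree replicate 2 of CBL-Y371S, the library with the fewest reads, differed from replicates 1 and 3 of its line, by 2.78 and 2.95, against 1.49 between replicates 1 and 3. In bulk RNA, a shift in the RNA of each cell and a shift in the mix of cells cannot be told apart.

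Respiratory complexes I to IV pass electrons from NADH and succinate to oxygen across the inner mitochondrial membrane, and complexes I, III and IV pump protons on the way. Complex V, the ATP synthase, lets the protons return and makes ATP. Cytochrome b of complex III, the catalytic core of complex IV and part of complexes I and V are made from mitochondrial DNA, whereas all subunits described here are made from nuclear genes, translated in the cytosol and imported. NRF1, GABPA of the ETS family, the oestrogen-related receptors and YY1 are transcription factors known to act at promoters of many of these genes.

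Promoters are shown because most members moved together. RefSeq promoters of GRCm38.p6, 250 bases before to 50 after a gene's start, were matched by symbol for 65 of the 85 members, using the first start listed, and compared with 27025 promoters of all genes. On either strand, the NRF1 letters GCGCATGCG were in 8 of 65 member promoters (12.3%) and in 1.81% of all promoters. The YY1 letters AAGATGGC were in 8 (12.3%, against 2.88%), the ETS letters CCGGAAGT in 5 (7.69%, against 4%) and the oestrogen-related receptor letters CAAGGTCA in 4 (6.15%, against 1.53%). The cAMP response letters TGACGTCA were in 4 (6.15%, against 1.88%) and the E-box letters CACGTG in 5 (7.69%, against 7.24%). The NRF1 letters can match both strands at overlapping positions, a promoter counted once per motif, and 36 of the 65 promoters held no exact match. The promoters of all genes were neither limited to the genes tested here nor matched for base content, so the shares are not those of comparable promoters. Below stand 120 bases before and 20 after the start for Uqcr11, Atp5k and Sdhb, the members of complexes III, V and II with the highest fold change in CBL-Y371S, with matches in capitals.
Uqcr11, chr10:80406802-80406941, minus strand: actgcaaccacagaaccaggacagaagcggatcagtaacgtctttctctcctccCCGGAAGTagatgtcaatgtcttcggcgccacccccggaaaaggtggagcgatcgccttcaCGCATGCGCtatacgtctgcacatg
Atp5k, chr5:108434380-108434519, minus strand: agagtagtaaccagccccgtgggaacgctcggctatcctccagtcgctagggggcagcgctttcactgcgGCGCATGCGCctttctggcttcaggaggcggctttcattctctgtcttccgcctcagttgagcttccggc
Sdhb, chr4:140961151-140961290, plus strand: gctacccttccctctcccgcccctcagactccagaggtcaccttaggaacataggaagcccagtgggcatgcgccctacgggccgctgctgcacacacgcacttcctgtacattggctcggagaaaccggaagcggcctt
Uqcr11 held the ETS letters starting 66 bases before the start and the NRF1 letters from 5 bases before it. Atp5k held the NRF1 letters from 50 bases before the start on one strand and 49 on the other, and Sdhb held no match in its whole promoter. A match is a description of letters and no evidence of binding.

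Subunits of all 5 complexes were more abundant in CBL-Y371S and WT-CBL than in EV, by small and similar amounts. Of the 80 members tested, 69 rose in CBL-Y371S and none fell, against 29.8% and 30.3% of all 15271 genes tested that rose and fell. In WT-CBL, 66 rose and none fell, against 20.8% and 21% of all genes. In CBL-70Z, 12 rose and 1 fell, against 12.1% of all genes in either direction. The median log2 fold change of the members was 0.32 in CBL-Y371S, 0.22 in WT-CBL and 0.06 in CBL-70Z, that is 1.24-fold, 1.16-fold and 1.04-fold, while the median of all genes was 0.01 in each comparison. These calls came from limma on log2(value + 1) over all 12 libraries at a Benjamini-Hochberg adjusted p below 0.05. Without replicate 2 of CBL-Y371S, the median in CBL-Y371S was 0.29. Without replicate 3 of WT-CBL, 60 members rose in WT-CBL with a median of 0.18. The CBL-70Z count was the least stable, since 23 rose and 2 fell without that library, 7 rose and 1 fell without replicate 1 of EV, and 23 rose and 2 fell when only EV and CBL-70Z entered the fit. Over all genes, 4832 were called in that last fit, of which 49.9% rose, against 1855 that rose and 1850 that fell in the main fit. Calls over all genes without a library are not given here, so how far these counts are particular to the members was not tested.

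The shift was visible library by library. Relative to the mean of the EV libraries, the median member stood at 0.29, 0.37 and 0.30 on the log2 scale in CBL-Y371S, at 0.07, 0.06 and 0.06 in CBL-70Z and at 0.18, 0.17 and 0.31 in WT-CBL. Every library of the 3 CBL lines thus lay above the 3 EV libraries, which stood at -0.003, -0.004 and 0.009. Replicate 3 of WT-CBL lay above replicates 1 and 3 of CBL-Y371S, so those lines overlapped. Members took 0.754% ± 0.004 of all reads in EV (SD, n = 3), 0.951% ± 0.011 in CBL-Y371S, 0.808% ± 0.005 in CBL-70Z and 0.873% ± 0.045 in WT-CBL. For 64 of 80 members the means were ordered EV, CBL-70Z, WT-CBL, CBL-Y371S, an order held by 16.3% of all genes tested.

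**Figure D1:**
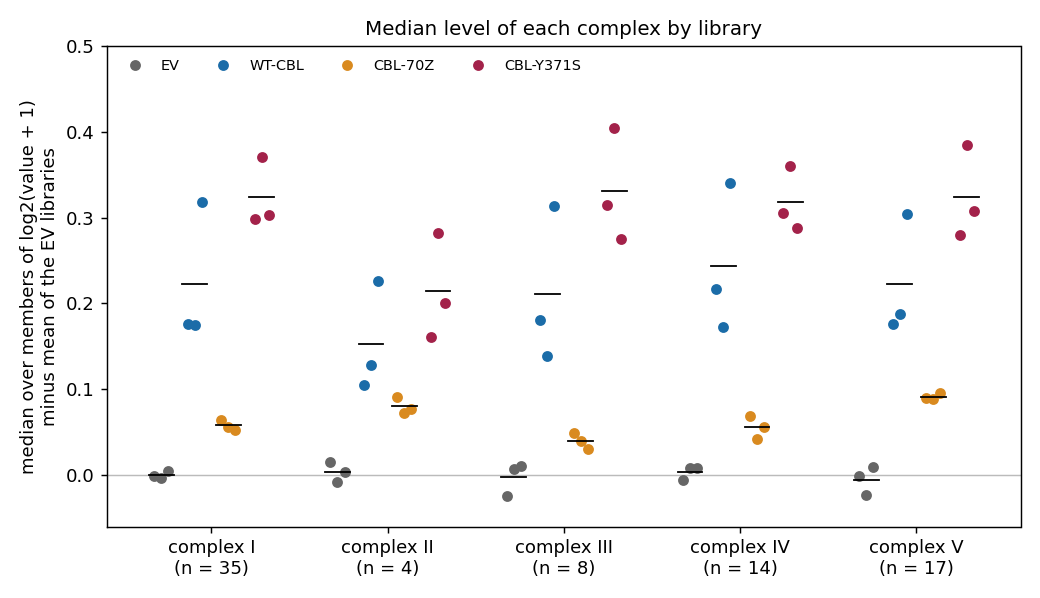
Median over the tested members of each complex of log2(value + 1) minus the mean of the EV libraries, 1 point per library, with a bar at the mean of the 3 libraries of a line. In every complex the 3 CBL-Y371S libraries lie above all CBL-70Z libraries, and replicate 3 of WT-CBL is the highest library of its line.

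Complex I takes electrons from NADH. In CBL-Y371S 32 of its 35 members rose, with a median of 0.32, in WT-CBL 30 rose with a median of 0.23, and in CBL-70Z 4 rose with a median of 0.06. The 7 core subunits that bind the flavin, the iron-sulphur clusters or ubiquinone had a lower median in CBL-Y371S, 0.19, than the 28 accessory members, 0.34. In WT-CBL the medians were 0.18 and 0.24. Whether core and accessory subunits differ was not tested.

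Ndufs7 (ENSMUSG00000020153, GRCm38 chr10:80249121-80256794, plus strand), an iron-sulphur subunit of the core, had the highest fold change of complex I in CBL-Y371S. Its normalised reads were 1064, 1079 and 1107 in EV, 1223, 1218 and 1371 in WT-CBL, 1138, 1170 and 1157 in CBL-70Z, and 1471, 1645 and 1418 in CBL-Y371S. All CBL-Y371S libraries lay above every library of the other lines. The log2 fold change against EV was 0.48 ± 0.05 (SE, adjusted p = 1.16e-07) in CBL-Y371S and 0.23 ± 0.05 (SE, adjusted p = 0.00139) in WT-CBL. In CBL-70Z it was 0.09 ± 0.05 (SE, adjusted p = 0.214), so no change was detected there. Ndufs7 was also higher in CBL-Y371S than in WT-CBL, by 0.25 ± 0.05 (SE, adjusted p = 0.000646).

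Ndufs1 (ENSMUSG00000025968, GRCm38 chr1:63143596-63176833, minus strand), the largest core subunit, which holds several iron-sulphur clusters, behaved otherwise. Its normalised reads were 3496, 3472 and 3470 in EV, 3568, 3593 and 3563 in WT-CBL, 3678, 3764 and 3659 in CBL-70Z, and 3403, 3503 and 3385 in CBL-Y371S. CBL-Y371S overlapped EV, and the log2 fold change was -0.02 ± 0.03 (SE, adjusted p = 0.532). In WT-CBL it was 0.04 ± 0.03 (SE, adjusted p = 0.27), and in CBL-70Z it rose by 0.09 ± 0.03 (SE, adjusted p = 0.021). Ndufs1 is the member with the longest exons, 8086 bases in all.

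Other core subunits lay between these. Ndufv1, which binds NADH and the flavin, had normalised reads of 4367, 4404 and 4344 in EV, 4810, 4823 and 5226 in WT-CBL, 4559, 4582 and 4704 in CBL-70Z, and 5292, 5449 and 5321 in CBL-Y371S. The 3 CBL-Y371S libraries were the highest of all and the 3 EV libraries the lowest. It rose by 0.29 ± 0.03 (SE, adjusted p = 1.14e-07) in CBL-Y371S and by 0.18 ± 0.03 (SE, adjusted p = 0.000137) in WT-CBL. Ndufs8 rose by 0.36 ± 0.04 (SE, adjusted p = 2.11e-07) in CBL-Y371S, Ndufv2 by 0.19 ± 0.05 (SE, adjusted p = 0.00106) and Ndufs3 by 0.16 ± 0.07 (SE, adjusted p = 0.0482). Ndufv2 and Ndufs3 thus moved less than the median member, and Ndufs3 was not called in WT-CBL, at 0.12 ± 0.07 (SE, adjusted p = 0.177).

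Among the accessory subunits, Ndufb10, of the membrane arm, had the highest fold change in WT-CBL. Its normalised reads were 2118, 1952 and 2092 in EV, 2584, 2450 and 2654 in WT-CBL, 2212, 2141 and 2252 in CBL-70Z, and 2742, 2853 and 2674 in CBL-Y371S. WT-CBL and CBL-Y371S were both separate from EV, with log2 fold changes of 0.32 ± 0.04 (SE, adjusted p = 2.4e-06) and 0.42 ± 0.04 (SE, adjusted p = 1.18e-08), while CBL-70Z gave 0.10 ± 0.04 (SE, adjusted p = 0.0667). Ndufb5, a subunit of the membrane arm, rose in all 3 lines, by 0.39 ± 0.05 (SE, adjusted p = 3.93e-07) in CBL-Y371S, 0.15 ± 0.05 (SE, adjusted p = 0.0275) in CBL-70Z and 0.26 ± 0.05 (SE, adjusted p = 0.000171) in WT-CBL. Ndufb3 likewise rose in all 3, with 0.16 ± 0.05 (SE, adjusted p = 0.0336) in CBL-70Z, the highest value of complex I in that line among called members. Ndufs5 and Ndufb4 had few reads, 9.60 to 24.2 and 24.3 to 43.4 normalised reads per library, and neither was called in any of these 3 comparisons. They are named, outside the rule for named members, because their values were seen to lie apart, and 39.7% and 37.9% of their 36-base stretches also occur in other genes.

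Complex II, succinate dehydrogenase, also works in the TCA cycle and is the only complex made wholly from nuclear genes. Of its 4 subunits, 3 rose in CBL-Y371S (median over the 4 of 0.21), 3 in WT-CBL (0.16) and 2 in CBL-70Z (0.09). Sdhb (ENSMUSG00000009863, GRCm38 chr4:140961203-140979193, plus strand), the iron-sulphur subunit, had normalised reads of 2486, 2327 and 2429 in EV, 2594, 2747 and 2853 in WT-CBL, 2591, 2574 and 2704 in CBL-70Z, and 2976, 3139 and 3097 in CBL-Y371S. The 3 CBL-Y371S libraries were the highest and all CBL libraries lay above EV. It rose by 0.35 ± 0.04 (SE, adjusted p = 1.25e-07) in CBL-Y371S, 0.18 ± 0.04 (SE, adjusted p = 0.00081) in WT-CBL and 0.12 ± 0.04 (SE, adjusted p = 0.0246) in CBL-70Z.

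Sdha (ENSMUSG00000021577, GRCm38 chr13:74322254-74350280, minus strand), the flavin-bearing catalytic subunit, had normalised reads of 4918, 4982 and 4665 in EV, 5011, 4994 and 4985 in WT-CBL, 4849, 5033 and 4866 in CBL-70Z, and 4897, 5060 and 4851 in CBL-Y371S. CBL-70Z and CBL-Y371S overlapped EV, the 3 WT-CBL libraries lay just above it, and the log2 fold changes against EV were 0.02 ± 0.03 (SE, adjusted p = 0.502) in CBL-Y371S, 0.04 ± 0.03 (SE, adjusted p = 0.281) in WT-CBL and 0.02 ± 0.03 (SE, adjusted p = 0.715) in CBL-70Z. The membrane anchors are Sdhc and Sdhd. Sdhc rose by 0.22 ± 0.04 (SE, adjusted p = 5.12e-05) and Sdhd by 0.20 ± 0.03 (SE, adjusted p = 2.11e-05) in CBL-Y371S, and Sdhd rose by 0.12 ± 0.03 (SE, adjusted p = 0.00947) in CBL-70Z.

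Complex III passes electrons from ubiquinol to cytochrome c. All 8 of its members under the name rule, which does not catch every nuclear subunit, rose in CBL-Y371S (median 0.34). In WT-CBL 7 rose (0.22), and in CBL-70Z none (0.05). Uqcr11 (ENSMUSG00000020163, GRCm38 chr10:80402997-80406830, minus strand), a small accessory subunit, had normalised reads of 587, 619 and 608 in EV, 704, 670.2 and 821 in WT-CBL, 629.9, 609 and 619 in CBL-70Z, and 794, 835 and 790.5 in CBL-Y371S. The CBL-Y371S libraries lay above every EV and CBL-70Z library. It rose by 0.42 ± 0.06 (SE, adjusted p = 4.49e-06) in CBL-Y371S and by 0.27 ± 0.06 (SE, adjusted p = 0.00107) in WT-CBL, although replicate 3 of WT-CBL reached the CBL-Y371S range. Uqcrh, the hinge protein, had the highest fold change of these 8 members in WT-CBL, 0.27 ± 0.03 (SE, adjusted p = 1.97e-06), and 0.29 ± 0.03 (SE, adjusted p = 1.89e-07) in CBL-Y371S.

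The larger subunits of complex III moved less evenly. Uqcrc1, a core protein, rose by 0.34 ± 0.03 (SE, adjusted p = 2.57e-08) in CBL-Y371S, whereas Uqcrc2, its partner in the complex, rose by 0.09 ± 0.03 (SE, adjusted p = 0.0176). Uqcrc2 had normalised reads of 2994, 2839 and 2859 in EV, 2963, 3017 and 3033 in WT-CBL, 2920, 2963 and 2922 in CBL-70Z, and 3042, 3172 and 3025 in CBL-Y371S, so the 3 CBL-Y371S libraries lay just above those of EV. Uqcrfs1, the Rieske iron-sulphur protein, rose by 0.20 ± 0.03 (SE, adjusted p = 2.52e-05) in CBL-Y371S and 0.13 ± 0.03 (SE, adjusted p = 0.00367) in WT-CBL.

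Complex IV, cytochrome c oxidase, passes electrons to oxygen. Of 14 members tested, 11 rose in CBL-Y371S (median 0.31), 12 in WT-CBL (0.22) and 3 in CBL-70Z (0.06), where 1 fell. The highest fold change was that of the Cox5b copy Gm11273, 0.53 ± 0.07 (SE, adjusted p = 2.17e-06) in CBL-Y371S, but 71.3% of the 36-base stretches of its transcript also occur in other genes, so its reads are uncertain. Ndufa4 (ENSMUSG00000029632, GRCm38 chr6:11900292-11907497, minus strand) shares little sequence and had normalised reads of 3188, 3057 and 3147 in EV, 3800, 3666 and 4179 in WT-CBL, 3461, 3578 and 3476 in CBL-70Z, and 4048, 4508 and 4125 in CBL-Y371S. All CBL libraries lay above EV, with log2 fold changes of 0.43 ± 0.04 (SE, adjusted p = 4.34e-08) in CBL-Y371S, 0.16 ± 0.04 (SE, adjusted p = 0.00875) in CBL-70Z and 0.31 ± 0.04 (SE, adjusted p = 1.26e-05) in WT-CBL.

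Several complex IV subunits come in a widespread form and a form of muscle, lung, testis or another tissue. The widespread forms carried nearly all of the RNA. Per kilobase of transcript, the mean over 12 libraries was 12068 normalised reads for Cox4i1 and 2.13 for Cox4i2, 9156 for Cox6a1 and 14.9 for Cox6a2, and 12731 for Cox8a and 0.484 for Cox8b. Cox8c had no read in any library, which allows up to 3 reads per library as counting error. Cox7a2 stood at 2709 per kilobase and the heart and muscle form Cox7a1 at 16.1, and Cox6b1 at 8747 against 2.29 for Cox6b2. Cox4i2, Cox6b2, Cox7a1, Cox8b and Cox8c were too low to test.

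Of the widespread forms, Cox8a had normalised reads of 6135, 6169 and 5971 in EV, 6874, 7008 and 7766 in WT-CBL, 6707, 6693 and 6687 in CBL-70Z, and 7998, 7999 and 8019 in CBL-Y371S. Each CBL line lay above EV without overlap, and CBL-Y371S lay above the others. It rose in all 3 lines, by 0.39 ± 0.03 (SE, adjusted p = 6.73e-09) in CBL-Y371S, 0.14 ± 0.03 (SE, adjusted p = 0.00643) in CBL-70Z and 0.24 ± 0.03 (SE, adjusted p = 1.52e-05) in WT-CBL. Cox6b1 likewise rose in all 3, by 0.13 ± 0.04 (SE, adjusted p = 0.00746) in CBL-70Z and 0.40 ± 0.04 (SE, adjusted p = 6.79e-09) in CBL-Y371S. Cox4i1 rose by 0.32 ± 0.04 (SE, adjusted p = 1.74e-07) and Cox6a1 by 0.39 ± 0.04 (SE, adjusted p = 3.21e-08) in CBL-Y371S, and neither was called in CBL-70Z, where the values were 0.04 and 0.04. Cox7a2 had the lowest called value of the complex in CBL-Y371S, 0.22 ± 0.04 (SE, adjusted p = 0.000102).

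Cox7b2 and Cox6a2, the rare forms with enough reads to test, had negative values in the mutants. Cox7b2 (ENSMUSG00000049387, GRCm38 chr5:71442824-71548205, minus strand), a paralogue of the widespread Cox7b, had normalised reads of 50.4, 33.5 and 41.5 in EV, 40.6, 49.1 and 49.8 in WT-CBL, 19.5, 19.5 and 25.2 in CBL-70Z, and 29.0, 29.2 and 41.7 in CBL-Y371S. The 3 CBL-70Z libraries were the lowest of all, and it fell by 0.92 ± 0.20 (SE, adjusted p = 0.00201) on the log2 scale in CBL-70Z. Cox7b stood at 1701 normalised reads per kilobase and Cox7b2 at 66.0. In CBL-Y371S it gave -0.32 ± 0.20 (SE, adjusted p = 0.182), which did not pass the test. Cox6a2, the heart and muscle form, had 10.1, 12.6 and 14.5 in EV, 11.3, 8.54 and 27.4 in WT-CBL, 8.21, 4.34 and 5.26 in CBL-70Z, and 5.80, 7.01 and 6.35 in CBL-Y371S, so that at most 27.4 normalised reads were behind any value. It was not called against EV, with -0.97 ± 0.38 (SE, adjusted p = 0.0726) in CBL-70Z and -0.85 ± 0.38 (SE, adjusted p = 0.0639) in CBL-Y371S, and the highest WT-CBL value was again replicate 3.

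**Figure D2:**
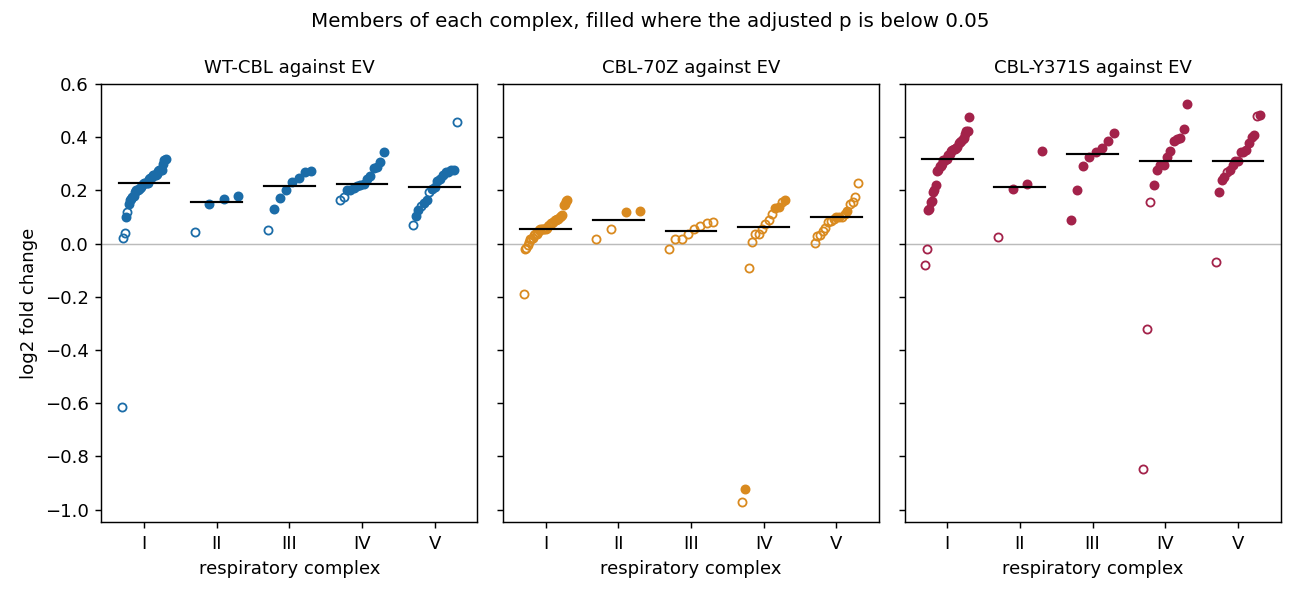
Log2 fold change against EV of each tested member (1 point per member, sorted within its complex), filled where the limma adjusted p was below 0.05, with a line at the median of the complex. In CBL-Y371S 69 of 80 members are filled and above 0, and in CBL-70Z 12, with Cox7b2 the filled point below 0.

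Complex V is built of the F1 head, which makes ATP, and a membrane part that carries the proton flow. Of its 17 members, 14 rose in CBL-Y371S (median 0.31), 13 in WT-CBL (0.21) and 3 in CBL-70Z (0.10). All 5 subunits of the F1 head rose in CBL-Y371S and in WT-CBL. Atp5b, the catalytic beta subunit, was the most abundant member at 14942 normalised reads per kilobase. Its normalised reads were 26885, 26982 and 26943 in EV, 28431, 28497 and 29910 in WT-CBL, 27837, 27689 and 27958 in CBL-70Z, and 31048, 30780 and 30589 in CBL-Y371S. The 3 CBL-Y371S libraries were the highest and all CBL libraries lay above EV, and the log2 fold changes were 0.19 ± 0.03 (SE, adjusted p = 1.39e-06) in CBL-Y371S, 0.10 ± 0.03 (SE, adjusted p = 0.00257) in WT-CBL and 0.05 ± 0.03 (SE, adjusted p = 0.196) in CBL-70Z.

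Atp5a1, the alpha subunit, rose in all 3 lines, by 0.25 ± 0.03 (SE, adjusted p = 1.22e-07), 0.10 ± 0.03 (SE, adjusted p = 0.0087) and 0.13 ± 0.03 (SE, adjusted p = 0.000811) in CBL-Y371S, CBL-70Z and WT-CBL. Atp5c1, the central stalk, also rose in all 3, with 0.12 ± 0.03 (SE, adjusted p = 0.0036) in CBL-70Z. Atp5d, the delta subunit of the head, had normalised reads of 4346, 4427 and 4215 in EV, 4680, 4656 and 5236 in WT-CBL, 4398, 4310 and 4584 in CBL-70Z, and 5831, 5837 and 5549 in CBL-Y371S. CBL-Y371S was separate from every other line, with 0.41 ± 0.04 (SE, adjusted p = 2.84e-08) against EV and 0.24 ± 0.04 (SE, adjusted p = 6.18e-05) against WT-CBL, while CBL-70Z gave 0.03 ± 0.04 (SE, adjusted p = 0.602) against EV.

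In the membrane part, Atp5k (ENSMUSG00000050856, GRCm38 chr5:108433244-108434448, minus strand) had the highest called value of the complex. Its normalised reads were 577, 587 and 642 in EV, 716, 673 and 799.9 in WT-CBL, 629.9, 709 and 663 in CBL-70Z, and 833, 819 and 873 in CBL-Y371S. It rose by 0.48 ± 0.06 (SE, adjusted p = 1.08e-06) in CBL-Y371S and 0.28 ± 0.06 (SE, adjusted p = 0.0013) in WT-CBL, while CBL-70Z overlapped EV at 0.15 ± 0.06 (SE, adjusted p = 0.0886). The c ring that turns with the proton flow is encoded by 3 genes with the same mature protein. Atp5g3 was the main form at 12954 normalised reads per kilobase, against 297 for Atp5g1 and 116 for Atp5g2. Atp5g3 rose by 0.38 ± 0.03 (SE, adjusted p = 8.73e-10), 0.10 ± 0.03 (SE, adjusted p = 0.0155) and 0.23 ± 0.03 (SE, adjusted p = 2.71e-06) in CBL-Y371S, CBL-70Z and WT-CBL, and Atp5g1 rose in CBL-Y371S by 0.35 ± 0.09 (SE, adjusted p = 0.00336). Atp5g2 was not called in any of the 3, with 0.27 in CBL-Y371S, but each of its 36-base stretches also occurs in another gene's transcript, as does 57.3% of those of Atp5g1. The 2 members that are no subunits differed, since Atp5sl rose by 0.30 ± 0.06 (SE, adjusted p = 0.000534) in CBL-Y371S and Atp5s gave -0.19 ± 0.13 (SE, adjusted p = 0.213).

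**Figure D3:**
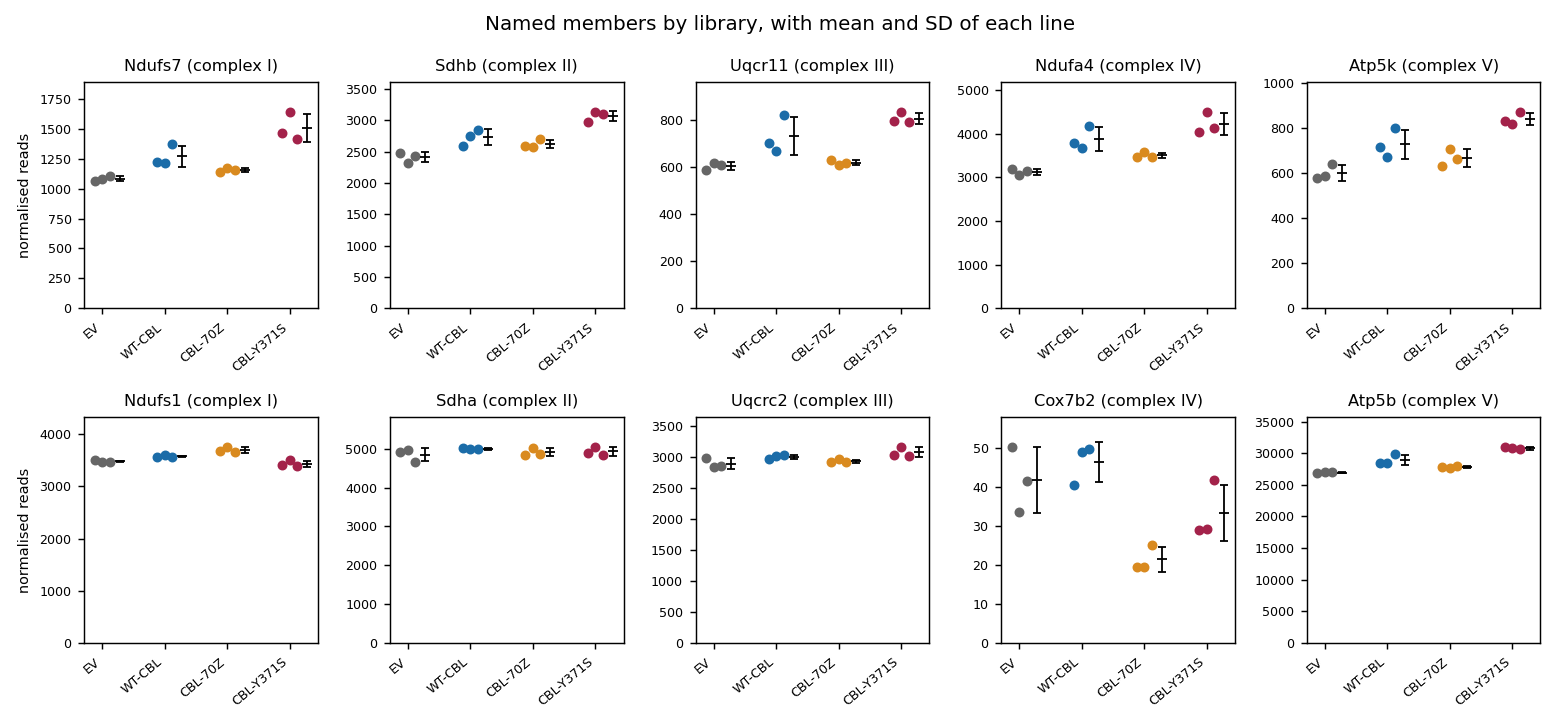
Normalised reads of 10 members in each library, from 0, by line, with the mean and SD (bar) of the 3 libraries beside the points. In the upper row CBL-Y371S lies highest by its mean, whereas Ndufs1, Sdha and Uqcrc2 in the lower row are nearly level, Atp5b rises little and Cox7b2 is lowest in CBL-70Z.

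The mutants were also compared with WT-CBL and with each other. These comparisons share libraries with those above. In CBL-70Z, 53 of 80 members were lower than in WT-CBL and none higher, against 16.3% of all genes lower and 18.9% higher, with a median of -0.15. Without replicate 3 of WT-CBL, 32 were lower, with a median of -0.11. The largest called differences were those of Cox6a2 (-1.15 ± 0.38, adjusted p = 0.0248), Cox7b2 (-1.09 ± 0.20, adjusted p = 0.000295) and Cox5b (-0.29 ± 0.08, adjusted p = 0.00487), of which the first rests on under 30 reads per library. Without replicate 3 of WT-CBL they were -0.68, -1.04 and -0.21, and Cox6a2 was no longer called. In CBL-Y371S, 31 members were higher than in WT-CBL and 1, Cox6a2, lower, against 18.5% and 21.5% of all genes, with a median of 0.09. Cox6a2 was at -1.02 ± 0.38, adjusted p = 0.04, and at -0.56 and not called without replicate 3 of WT-CBL. The count of members called was 47 without that library, all higher, and 18 without replicate 1 or replicate 2 of WT-CBL or without replicate 2 of CBL-Y371S, so its size depends on single libraries.

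Between the mutants most members differed. In CBL-70Z, 69 were lower than in CBL-Y371S and 1, Ndufs1, was higher, against 24.5% and 25.9% of all genes, with a median of -0.25. Besides Cox7b2 (-0.60 ± 0.20, adjusted p = 0.0177), the largest differences were those of Ndufs7 (-0.38 ± 0.05, adjusted p = 3.92e-06) and Uqcr11 (-0.38 ± 0.06, adjusted p = 2.28e-05). By complex, 31 of 35, 3 of 4, 7 of 8, 13 of 14 and 14 of 17 members of complexes I to V were lower in CBL-70Z. Ndufs1 was higher by 0.11 ± 0.03 (SE, adjusted p = 0.00215), and with the exon length and GC trend removed its difference turned to -0.14 (adjusted p = 0.000387).

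Fold changes in these libraries followed gene length, and respiratory subunits are short. The total exon length had a median of 1631 bases over the members and 3780.5 over all genes tested. Across the 15100 genes with an annotated length, the fold change against EV and the exon length had a Spearman rho of -0.37 in CBL-Y371S, -0.17 in CBL-70Z and -0.41 in WT-CBL. These are correlations across genes of the same libraries, and genes are not independent replicates. Library by library, the rho of the deviation from EV with length over the other genes was -0.33 to -0.38 in CBL-Y371S, -0.11 to -0.19 in CBL-70Z and -0.34 to -0.44 in WT-CBL, and strongest in replicate 3 of WT-CBL. Among the 73 members with 100 or more normalised reads on average, the rho was -0.41, -0.069 and -0.57 in the same order, and among all 11146 genes at that level it was -0.52, -0.26 and -0.585. The part of RNA quality and library preparation in this trend was not tested.

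At equal total exon length the members still lay above other genes in WT-CBL and CBL-Y371S. Among genes with 1000 to under 1500 bases of exon, the median log2 fold change in CBL-Y371S was 0.32 for the 15 members and 0.18 for the 949 other genes, and in WT-CBL 0.27 and 0.14. Among genes with 3000 to under 4500 bases, it was 0.29 for 13 members and 0.04 for 2899 others in CBL-Y371S. In CBL-70Z the classes went both ways, with medians of 0.052 for members and 0.066 for others under 750 bases, 0.073 and 0.051 at 1000 to under 1500 bases, 0.054 and 0.0096 at 3000 to under 4500 bases, and 0.099 and -0.024 at 4500 bases or more. Of the 37 members with exons under 1500 bases, 33 rose in CBL-Y371S, 33 in WT-CBL and 5 in CBL-70Z, against 35.4%, 26.6% and 10.4% of all 2847 tested genes of that length. These comparisons match total exon length, which counts the exons of all transcripts of a gene, and not transcript length. A typical transcript had a median of 652 bases over the members and 2148 over all genes tested. Removal of a trend with transcript length is given below. The level of expression was not matched either, and the part of level in the shares called was not tested.

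**Figure D4:**
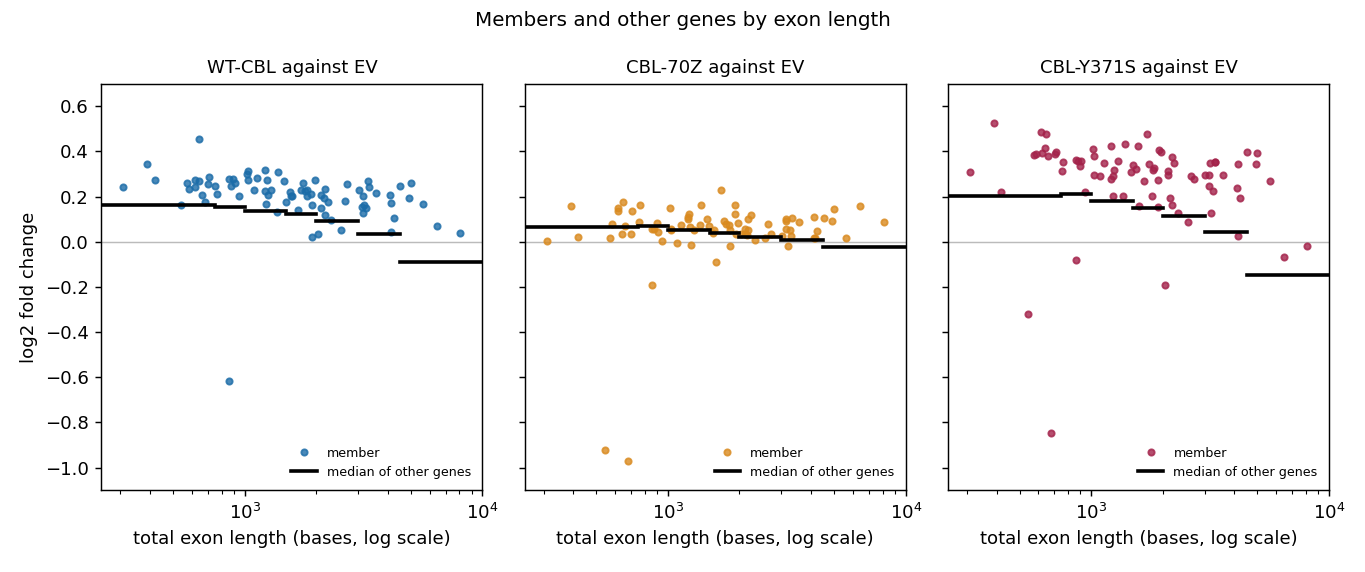
Log2 fold change against EV by total exon length (log axis), with 1 point per member and black lines at the median of all other genes in 7 length classes, the last of which is open above 4500 bases. In CBL-Y371S and WT-CBL the median member lies above the line in every class, and in CBL-70Z it lies below the line in the classes under 1000 bases and above it in the others.

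When the trend with exon length and GC content was fitted on the other genes in each library and removed, 66 members rose in CBL-Y371S and 1, Cox6a2, fell, 49 rose in WT-CBL and none fell, and 14 rose in CBL-70Z and 1 fell. The shares of all 15100 genes that rose were then 32.2%, 20.7% and 15.3%. Of the members called before, 64 of 69, 48 of 66 and 12 of 13 were called in the same direction. The median fell to 0.23 in CBL-Y371S, 0.15 in WT-CBL and 0.04 in CBL-70Z, or 1.17-fold, 1.11-fold and 1.03-fold. With the length of a typical transcript in place of total exon length, an alternative chosen after the data were seen, the medians were 0.19, 0.11 and 0.03, and 62, 46 and 9 members rose. Over all genes in that fit, 8260, 4978 and 4021 were called, and 57.2%, 56.2% and 56.9% of these calls were higher. The fits used length and GC but not the level of expression. Before removal the trend with exon length was steeper among abundant genes, with a rho of -0.52 against -0.37 over all genes in CBL-Y371S. In WT-CBL these were -0.585 and -0.41, and in CBL-70Z -0.26 and -0.17. Most members are abundant, and whether the removal was complete at their level was not tested.

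After removal of the trend with exon length and GC, Ndufs1 stood at 0.24 (adjusted p = 1.55e-07) in CBL-Y371S and Sdha at 0.07 (adjusted p = 0.0448), while Ndufb5 reached 0.46 (adjusted p = 1.99e-08) and Ndufa4 0.46 (adjusted p = 1.62e-09), among the highest members. Cox7b2 stayed low in CBL-70Z at -0.95 (adjusted p = 0.00104). By complex, the CBL-Y371S medians after removal were 0.22, 0.17, 0.22, 0.20 and 0.25 for complexes I to V.

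Many respiratory genes have processed copies elsewhere in the genome, and reads of 36 bases that match several genes may be lost or split. Of the 85 members, 58 shared under 20% of their 36-base stretches with transcripts of other genes, and 12 shared over 50%. Among the 53 tested members with little sharing, a subset chosen after the data were seen, 48 rose in CBL-Y371S, 48 in WT-CBL and 12 in CBL-70Z, with medians of 0.32, 0.22 and 0.07. Counting was not stated to use strand, and the kit does not mark it, so reads of overlapping genes cannot be told apart.

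Subunits and helpers outside the name rule were taken from fixed lists. Of 13 subunits encoded in mitochondrial DNA, 10 were tested, but COX2, COX3 and ATP6 had 15 to 38 reads per library and ND3, ATP8 and ND4L under 7, while COX1 had 140839 or more. In WT-CBL 5 rose, in CBL-70Z 4, and in CBL-Y371S 3 rose and 2 fell, with medians of 0.18, 0.09 and 0.08. ND6 rose by 0.41 ± 0.05 (SE) in WT-CBL and 0.29 ± 0.05 in CBL-Y371S, whereas COX1, the catalytic subunit of complex IV, fell by 0.14 ± 0.03 in CBL-Y371S. With the exon length and GC trend removed, 5 of the 10 rose and none fell in CBL-Y371S, with a median of 0.26, so the falls depend on that setting. Of 8 genes of nuclear subunits or partners whose names miss the rule, 7 were tested, and all 7 rose in CBL-Y371S, 6 in WT-CBL and 4 in CBL-70Z, with medians of 0.39, 0.23 and 0.17. The tables list 2 genes as Cycs, the electron carrier cytochrome c, and they rose by 0.52 ± 0.05 and 0.48 ± 0.06 in CBL-Y371S.

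Assembly factors, which help build the complexes and do not stay in them, rose more often than they fell. Of all genes tested, 29.8% rose and 30.3% fell in CBL-Y371S, 20.8% and 21% in WT-CBL, and 12.1% each way in CBL-70Z. Of 14 complex I assembly factors tested, 7 rose and 1 fell in CBL-Y371S (median 0.10), 5 rose in WT-CBL (0.11) and 2 rose in CBL-70Z (0.04). The highest was Ndufaf2, at 0.60 ± 0.05 in CBL-Y371S. Of 30 factors for complexes II to V, 14 rose and 2 fell in CBL-Y371S (median 0.18), 11 rose and 3 fell in WT-CBL (0.14), and 2 rose in CBL-70Z (0.03). Of 13 TCA cycle enzymes, 10 rose in CBL-Y371S (0.20), 6 in WT-CBL (0.10) and 3 in CBL-70Z (0.07), among them Mdh2, mitochondrial malate dehydrogenase, by 0.38 ± 0.03 in CBL-Y371S.

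Ribosomal proteins, another class of mostly short and abundant messages, moved in the same direction. Of 76 mitochondrial ribosomal proteins, 72 rose in CBL-Y371S, 60 in WT-CBL and 19 in CBL-70Z, with medians of 0.33, 0.21 and 0.10. Of 60 cytosolic ribosomal protein genes tested, 56, 47 and 10 rose, with medians of 0.38, 0.25 and 0.09. With the exon length and GC trend removed, 66 of the mitochondrial and 53 of the cytosolic ribosomal proteins rose in CBL-Y371S, with medians of 0.30 and 0.26, beside 0.23 for the respiratory subunits. Differences among these families were not tested, and nothing particular to the respiratory chain can be read from the size of its shift.

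Transcriptional regulators of respiratory genes did not rise as a list. Of 13 tested, 4 rose and 5 fell in CBL-Y371S (median -0.09), 1 rose and 2 fell in WT-CBL (-0.06), and 1 rose and 1 fell in CBL-70Z (0.03). In CBL-Y371S these shares, 30.8% and 38.5%, lay near those of all genes tested, 29.8% and 30.3%. In WT-CBL they were 7.69% and 15.4%, against 20.8% and 21% of all genes, and in CBL-70Z 7.69% each way, against 12.1%. Ppargc1a, a coactivator of mitochondrial biogenesis, fell by 0.97 ± 0.09 (SE) in CBL-Y371S and by 0.47 ± 0.09 in CBL-70Z. Gabpa fell by 0.44 ± 0.04 in CBL-Y371S, while Nrf1 rose by 0.19 ± 0.04 and Esrra, an oestrogen-related receptor, by 0.26 ± 0.05. With the exon length and GC trend removed, 8 of these regulators rose and 3 fell in CBL-Y371S, with a median of 0.16, and the medians in WT-CBL and CBL-70Z were 0.04 and 0.04, so the direction of the list depends on that setting.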

How the data were processed

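RNA of 12 NIH-3T3 libraries (4 lines, 3 each) was extracted with TRIzol, prepared with an unstranded TruSeq v2 kit and sequenced as pairs of 36 bases. The submitters' processing notes name FastQC 0.10.1, TopHat2 2.0.13, Bowtie2 2.2.4.0, HTSeq 0.9.1, DESeq2 and GRCm38. The authors deposited 3 tables, each of a CBL line with EV, whose per-library columns hold signal values, gene counts divided by size factors fitted in each table. The tables also hold the authors' own means, fold changes and p-values, which were not used. Whole reads were recovered for 100% of values within 1e-06 of a whole number, and EV gave the same reads in each of the 3 tables. Of 42847 lines, 878 gene IDs stood on several and each ID was kept once.

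Median-of-ratios factors computed jointly from the 12 libraries gave the common scale called normalised reads. The test was limma 3.58.1 (R 4.3.3) with a trended prior on log2(value + 1), for genes whose mean reached 10 in any line. Benjamini-Hochberg adjustment covered all 15271 such genes, and a gene was called below 0.05. A fold change on this scale understates that of low genes. edgeR 4.0.16 and DESeq2 1.42.0 on the recovered reads were alternatives, since the main test was set for signal values. The other alternatives were pseudocounts of 0.5 and 5, no filter and a filter of 50, TMM, scaling by the shared EV columns, only 2 lines in the fit, a replicate block, removal of trends with exon length and GC (natural splines, 5 df, fitted on non-members per library) and leaving out each library. Exon lengths came from GENCODE M21, and shared sequence was the share of 36-base stretches of a basic transcript found in transcripts of other genes. The scripts were tested on simulated data.

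Named members were, per complex and line, the highest and lowest called with a mean of 100 or more, the core and catalytic subunits, the tissue isoforms, the 3 largest called between CBL lines, and the 3 highest and lowest called per line after trend removal (1 of these is not reported here). Members and lists were chosen with earlier results of these data known. Level comparisons between genes are per kilobase of transcript. Depth was 20724468 to 29684881 reads in genes per library, and intervals and floors cover counting error only.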

Additional observations from a re-analysis of the deposited data

How the results depend on the processing

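Direction held for the median member in all 6 comparisons under every alternative. Removing the trend with exon length, with exon length and GC, or with transcript length and GC (the last added after the data were seen) moved the median from 0.22 to 0.15, 0.15 and 0.11 in WT-CBL against EV, from 0.062 to 0.048, 0.044 and 0.033 in CBL-70Z, from 0.32 to 0.24, 0.23 and 0.19 in CBL-Y371S, from -0.25 to -0.19, -0.17 and -0.14 in CBL-70Z against CBL-Y371S, and from 0.094 to 0.086, 0.074 and 0.055 in CBL-Y371S against WT-CBL, where 27, 25 and 22 members were then higher and 2, 1 and 2 lower. In CBL-70Z against WT-CBL 33, 31 and 27 members were called, and the median was -0.091 under the last. With only the lines compared in the fit, 25 were called in CBL-70Z against EV and 19 in CBL-Y371S against WT-CBL. The replicate block called 64, 13 and 68 against EV, 51 and 28 against WT-CBL and 69 between mutants. Same-numbered libraries correlated at -0.22 to 0.22 and others at -0.18 to 0.29, and 4 of 12 correlated best with their own number, so numbers did not pair libraries.

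Leaving out 1 library gave 60 to 66 called (median 0.18 to 0.25) in WT-CBL, 8 to 25 (0.058 to 0.077) in CBL-70Z, 67 to 71 (0.29 to 0.33) in CBL-Y371S, 32 to 55 (-0.18 to -0.11) in CBL-70Z against WT-CBL, 18 to 47 (0.058 to 0.14) in CBL-Y371S against WT-CBL and 63 to 71 (-0.26 to -0.22) between mutants. Low-count members are limited by depth. Among values of named members, 5869 counted as unchanged, 334 lost and 69 gained the call, and 13 counted as reversed, all on trend removal (the cause was not tested). A value that was not called could change sign and still count as unchanged. Cox5b did so in CBL-Y371S against WT-CBL, from -0.045 to 0.040 without replicate 3 of WT-CBL. In CBL-70Z against WT-CBL, Atp5d turned to 0.0025 and Ndufs7 to 0.0011 with the transcript trend, Cox8a to 0.018 and 0.034, and Ndufv1 to 0.0055 and 0.0073 with the exon length and GC and the transcript trend. Ndufs1 turned to 0.19, 0.24 and 0.11 in CBL-Y371S against EV and to -0.056, -0.14 and -0.040 between mutants, and Sdhd to 0.00065 between mutants with the exon length trend. Over all genes, the share of calls that were higher in CBL-Y371S against WT-CBL was 46.3%, and 55.9%, 56.6% and 56.7% after the 3 removals.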
